A study of Mus musculus with 6 samples.

Results

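The comparison described here set mouse T cells that received the costimulatory ligand B7-2 together with an antibody to CD3 against T cells that received the antibody alone. It used 2 Affymetrix arrays of each group, 4 of the 6 arrays of the series, and was carried out over 17097 genes. The cells were CD4+ T cells of female C57BL/6 mice, selected with magnetic beads after CD25+ cells had been removed; 1 label names spleen and another spleen and lymph nodes as their source. In the anti-CD3 wells the plate was coated with anti-CD3 (clone 2C11) at 2 µg/ml and with control IgG, which 1 label calls human IgG and another IgG1. In the B7-2 wells it was coated with the same antibody and IgG and with B7-2 as a recombinant Fc fusion protein at 3 µg/ml. The medium of both groups held IL-2 (10 ng/ml) and human TGF-beta (0.36 ng/ml), so each difference is one between cells that already had both cytokines, and the cultures lasted 4 days. The remaining 2 arrays, of wells coated with anti-CD3, B7-2 and BTNL2 (the last an Fc fusion protein at 11 µg/ml), entered the fit to share the estimate of the spread. The cultures were made in duplicate and nothing states that duplicates came from separate animals, so p-values measure only the spread between these cultures, which may be technical.

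T cells are activated through the T cell receptor, whose signal passes through the CD3 chains. B7-2, also named CD86, is carried by antigen-presenting cells and binds CD28 on the T cell, which adds a second signal through PI3K, NF-kappaB and related pathways and is known for raising cytokine production, metabolism and survival. The same ligand binds CTLA-4, an inhibitory receptor that appears on activated T cells. Plate-bound antibody and B7-2 protein take the place of the antigen-presenting cell, and no receptor was blocked, so the part of CD28 and of CTLA-4 in any change cannot be told apart.

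Intensities are given on the linear scale as deposited, for the anti-CD3 arrays first, and changes as log2 of the B7-2 wells over the anti-CD3 wells with the standard error of the limma fit (n = 2 arrays a group). A gene with several probe sets is represented by the one of strongest signal, and where the change is given, that over the mean of all its probe sets is added if the log2 values differ by more than 1.5 times. A gene was called where its Benjamini-Hochberg adjusted p over the 17097 genes was under 0.05. By this rule 1909 genes (11.2%) were called higher with B7-2 and 2281 (13.3%) lower, 4190 in all (24.5%). An unadjusted p under 0.05 was found for 6030 genes. Each count of list members called below is to be read beside the shares of 11.2% and 13.3%. Those shares depend on signal, as given at the end of this paragraph. The lists were also written with earlier results of these data known, so an excess over the shares may be in part built in. A list with counts near these shares does not stand apart from all genes. Counts of calls that held with 1 array left out rest on fewer arrays and are not to be set beside them. Called changes of at least 2-fold numbered 207 higher and 456 lower, those of at least 4-fold 27 and 47, and those of at least 8-fold 5 and 6. Small changes depended on every array: leaving out an anti-CD3 array left 2454 (the first) or 2647 (the second) genes called, and leaving out a B7-2 array 2722 (the first) or 2687 (the second). Of the 663 genes called at a change of at least 2-fold, 631 were called in the same direction in each of those 4 fits; a call is said to hold without any 1 array where all 4 made it, and to be lost without an array where that fit did not. The arrays of the groups did not overlap for 10272 genes (60.1%), so absence of overlap alone says little here. Changes in most genes were small, with a median log2 change of -0.005 and a range from the 5th to the 95th percentile of -0.74 to 0.60. With genes ranked by signal and cut into 4 parts of equal size, 42 were called higher and 66 lower of the 4275 in the dimmest part. In the brightest part of 4274 genes 938 were higher and 777 lower, so a list of bright genes holds more calls than the shares of all genes for that reason alone.

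**Figure D1:**
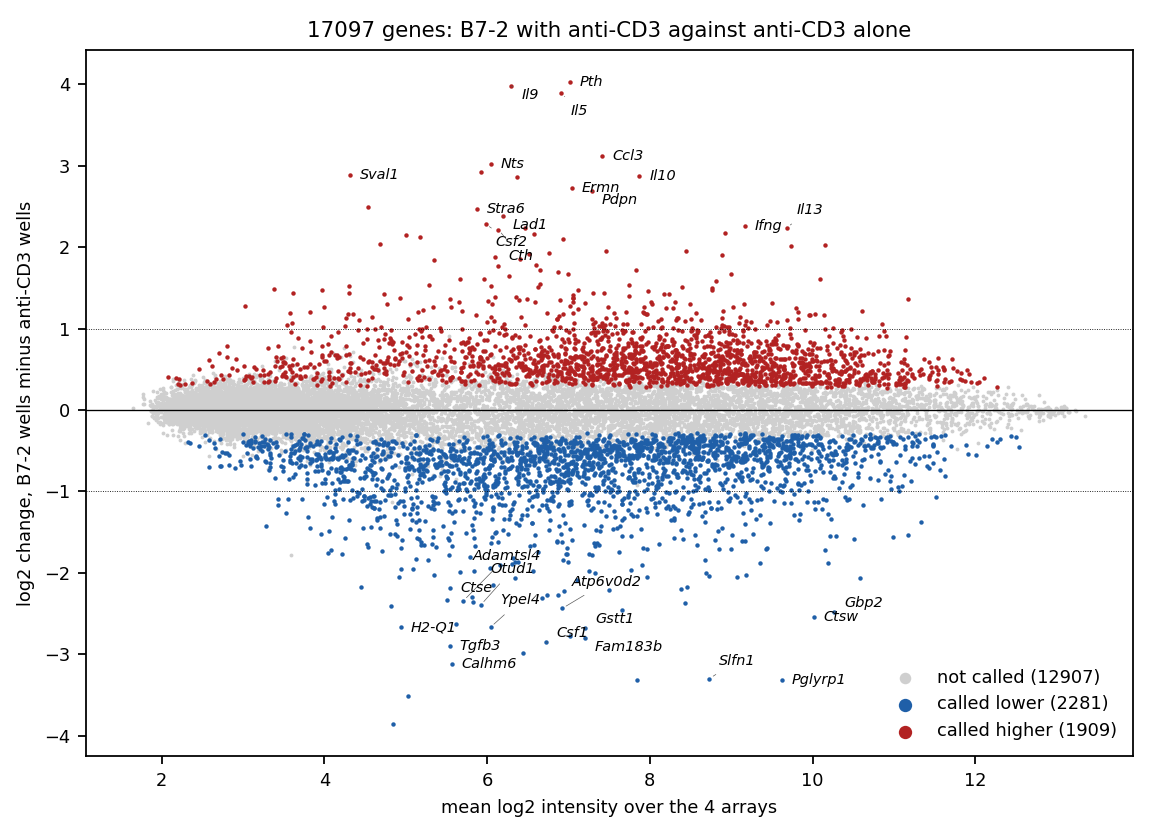
Each point is 1 of 17097 genes, with the mean log2 intensity over the 4 arrays on the horizontal axis and the log2 change, B7-2 wells minus anti-CD3 wells, on the vertical axis; red and blue points were called higher (1909) and lower (2281), and dotted lines mark a 2-fold change. The labelled genes are the 15 largest rises, led by Pth, Il9 and Il5, and the 15 largest falls, led by Pglyrp1, Slfn1 and Calhm6, by a rule that also takes the mean of a gene's probe sets.

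The duplicate arrays of a group correlated at r = 0.998 and 0.997 across genes and arrays of different groups at 0.986 to 0.987, where genes are not independent replicates. The label of the cells was checked against marker genes. T cell genes gave strong signal on the 4 arrays: Cd3d, a chain of the receptor complex, read 5349.7 and 5323 on the anti-CD3 arrays and 4258 and 4073 on the B7-2 arrays. Cd4 read 1705 and 1557 against 1407 and 1319.8 and was not called (log2 change -0.26 ± 0.09, limma adjusted p = 0.0949). Of 11 CD4 T cell markers 0 were called higher and 4 lower, which were Cd28, Cd3g, Bcl11b and Cd3d, the last 2 not in each fit without 1 array. The 11 summed to 28134 and 27515 on the anti-CD3 arrays and 22563 and 22863 on the B7-2 arrays. All 11 had a log2 change below 0. Of 14 B cell markers 9 were called lower and 0 higher (8 lower in each fit without 1 array). Their summed intensity was 6367 and 5655 on the anti-CD3 arrays and 3082 and 3185 on the B7-2 arrays. The antigen presentation genes H2-Aa, H2-Ab1, H2-Eb1 and Cd74 are among the 14 and enter this sum. The defining genes Cd79a (146 and 115 against 69.8 and 59.8) and Ms4a1 (133 and 128 against 95.3 and 97.8) were above background in both groups, the first called lower and the second not (limma adjusted p = 0.0765). Of 11 CD8 T cell and NK cell genes 5 were lower and 0 higher, with sums of 751 and 803 against 399.6 and 383; Cd8a, the CD8 alpha chain, fell from 302 and 321 to 119 and 107 (log2 change -1.47 ± 0.10, limma adjusted p = 0.000273), and Ncr1, an NK cell receptor, read 5.84 and 5.08 against 5.24 and 4.75, within the range of the nonspecific control probe sets, which reached 6.0. The other CD8 or NK genes called lower were Klrd1, Crtam, Cd8b1 and Klrk1, the last lost without the second anti-CD3 array, the first B7-2 array or the second B7-2 array (limma adjusted p = 0.0864 to 0.166). Of 4 gamma-delta T cell markers 2 were lower, Blk and Trgv1, with sums of 81.3 and 83.7 against 59.8 and 59.0; Trgv1 was not called without the first anti-CD3 array, the second anti-CD3 array or the second B7-2 array (limma adjusted p = 0.0641 to 0.103), nor with 16 added to each value before the log (limma adjusted p = 0.0867). Of 16 myeloid markers Clec7a was higher and Cd68 lower, with sums of 324 and 353 against 290.2 and 279.8, and Lyz2 and Itgam, which define these cells, read at most 8.06 and 9.31. None of 9 erythroid and platelet markers was called, and the B7-2 arrays gave a sum of 138 and 134. RNA came from whole cultures, so fewer cells of a type and less RNA per cell cannot be told apart.

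Among the cytokine genes, which encode the messages that a helper T cell sends to other cells, the B7-2 wells were higher in most. Of 25 measured members of the list, 15 were called higher and 4 lower, each of these also without any 1 of the 4 arrays, against 11.2% and 13.3% of all genes. The list's median log2 change was 1.02, and that of all genes -0.005. The 2 largest changes were in cytokines of type 2 immunity. Il9, a growth factor of mast cells and T cells, read 20.4 and 19.3 on the anti-CD3 arrays and 319 and 307 on the B7-2 arrays (log2 change 3.98 ± 0.21, limma adjusted p = 0.000166). Il5, which drives eosinophils, read 28.9 and 33.7 against 472 and 456 (log2 change 3.89 ± 0.23, limma adjusted p = 0.00018). Their anti-CD3 values are less than 2 times the median of the arrays, 18.4 to 18.8, so the folds, 15.8 and 14.8, start from weak signal, and with 16 added to each intensity the log2 changes were 3.20 and 3.34. Il13, which acts on epithelium and smooth muscle, started higher, at 379.5 and 377, and reached 1761 and 1814 (log2 change 2.24 ± 0.09, limma adjusted p = 9.7e-05). Il4, the founding cytokine of the type 2 lineage, read 173 and 157 against 291 and 404, a smaller rise of 2.08-fold (limma adjusted p = 0.00355). In these 4 genes each B7-2 array was above both anti-CD3 arrays, but the arrays did not overlap in 60.1% of all genes. For Il9, Il5 and Il13 it was also a condition of their place among the largest rises.

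Cytokines outside the type 2 group rose as well. Ifng, the macrophage-activating interferon of type 1 immunity, read 242 and 286 without B7-2 and 1295 and 1216 with it, a 4.78-fold rise (log2 change 2.26 ± 0.12, limma adjusted p = 0.000166). Il10, which restrains inflammation, went from 94.2 and 79.2 to 617 and 654 (log2 change 2.88 ± 0.16, limma adjusted p = 0.000167). Csf2, which encodes GM-CSF, rose 4.87-fold from 25.8 and 31.9 to 136 and 143, and Il3, a second hematopoietic growth factor, read 5.68 and 6.89 against 15.7 and 19.5, from signal close to background. Penk, the precursor of the enkephalin peptides, rose from 553 and 573 to 2359.9 and 2233 and Lta, the lymphotoxin alpha gene, from 464 and 388 to 1684 and 1747, both about as much on the log2 scale (2.03 and 2.01). Il24 was already strong at 1399.7 and 1476 and rose to 3730.4 and 3674. Tnf, which encodes the inflammatory cytokine TNF, rose 2.03-fold from 26.6 and 26.6 to 55.2 and 53.0, and Ebi3, a subunit of IL-27 and IL-35, 2.03-fold. Lif rose 2.86-fold by its strongest probe set, and its log2 change of 1.51 became 0.65 over all its 3 probe sets. Il17a, the cytokine of the Th17 lineage, was called higher at 5.50 and 5.10 against 8.47 and 9.87, values near background.

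Of the same list, 4 genes fell. Csf1, the macrophage growth factor, dropped from 284 and 286 to 35.1 and 44.4 (7.23-fold, limma adjusted p = 0.000109). Tgfb3 fell from 118 and 136 to 26.1 and 11.1; the B7-2 arrays differ more than 2-fold here, and the log2 change of -2.90 was -3.51 without the first of them and -2.28 without the second. Ltb, the membrane-anchored partner of lymphotoxin alpha, went from 285 and 285 to 99.0 and 81.4, in the direction opposite to Lta. Il16, a chemoattractant of CD4+ cells, fell 2.37-fold. Il2, the T cell growth factor that CD28 is best known for raising, read 15.8 and 11.0 and 15.5 and 20.2 in wells that had been given IL-2 protein, and was not called (log2 change 0.43 ± 0.21, limma adjusted p = 0.207). Il21 (406 and 485 against 333 and 282; limma adjusted p = 0.236), Tgfb1 (389 and 395 against 389.8 and 413) and the dim genes Il6, Il12a and Il31 were not called either.

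Chemokines, which attract other leukocytes, changed in part. Of 17 genes 5 were called higher and 2 lower (4 and 0 in each fit without 1 array). Ccl3 and Ccl4, inflammatory chemokines, rose from 58.6 and 57.1 to 457 and 555 and from 45.8 and 60.1 to 179 and 182. Ccl22 and Ccl17, both ligands of CCR4, rose 2.3-fold and 1.59-fold. Ccl9 was called higher, and Xcl1 and Cxcl10, the latter an interferon-induced gene, lower, but these 3 calls did not hold in each fit without 1 array. Ccl5 read 343 and 313 against 213 and 251 and was not called (limma adjusted p = 0.103). Among 14 chemokine receptors 1 was higher and 3 were lower, beside 11.2% and 13.3% of all genes. Ccr6, a receptor of Th17 cells, read 26.4 and 24.3 against 63.9 and 39.6 and was called higher, but not without the first anti-CD3 array or the second anti-CD3 array (limma adjusted p = 0.0563 to 0.0746). Cxcr3, a receptor of Th1 cells, was called lower, but not without any 1 of the 4 arrays (limma adjusted p = 0.0569 to 0.0735). Ccr2 fell 1.88-fold (log2 change -0.91, or -0.47 over all its probe sets), and Ccr4, the receptor of Ccl22 and Ccl17, 1.48-fold from 132 and 145 to 93.4 and 92.8, a call lost without any 1 of the 4 arrays (limma adjusted p = 0.0562 to 0.102).

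**Figure D2:**
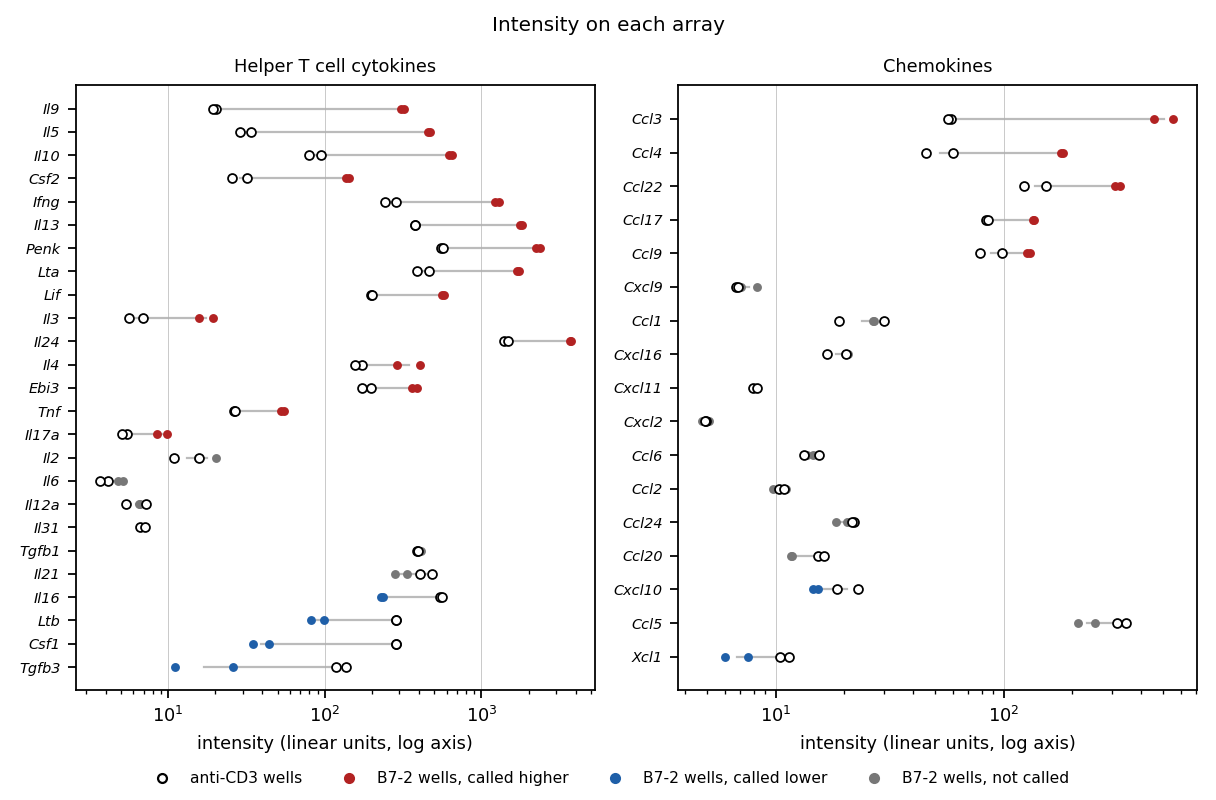
Each row is a gene and each point 1 array, with intensity on a log axis; open circles are the 2 anti-CD3 arrays, filled circles the 2 B7-2 arrays (red called higher, blue called lower, grey not called), and lines join the geometric means. Of 25 cytokine genes 15 were called higher with B7-2 and 4 lower, and Ccl3 has the widest gap of the 17 chemokines.

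Members of the TNF family divided. Of 23 ligands and receptors 4 were higher and 5 lower (3 and 3 without any 1 array), beside 11.2% and 13.3% of all genes. Fasl, the death ligand, rose from 68.3 and 74.1 to 245 and 209.9 (log2 change 1.67 ± 0.11, limma adjusted p = 0.000231), while its receptor Fas fell from 473 and 516 to 230.2 and 240.1 (log2 change -1.07 ± 0.09, limma adjusted p = 0.0005). Tnfsf11, which encodes the osteoclast factor RANKL, rose from 64.3 and 54.3 to 247 and 261 by its strongest probe set; over all its 2 probe sets the log2 change of 2.10 became 0.89. Tnfrsf10b, a death receptor, rose 2.03-fold (log2 change 1.02, or 0.66 over all its probe sets) and Tnfsf9, the ligand of 4-1BB, was called higher, the latter not without the first anti-CD3 array, the second anti-CD3 array or the second B7-2 array (limma adjusted p = 0.0573 to 0.205). The costimulatory receptor Cd27 fell 2.11-fold and Tnfsf4, which encodes OX40 ligand, 1.95-fold. Tnfsf14 and Tnfrsf13b were called lower, but not in each fit without 1 array. The receptors Tnfrsf4 (3900.3 and 4040.2 against 3869 and 3856) and Tnfrsf18 (3674 and 3635 against 3401 and 3085), induced on activated T cells, were strong in both groups and not called.

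Genes of cytokine receptors were more often lower than higher. Of 26 interleukin and interferon receptor genes 10 were called lower and 2 higher (9 and 2 without any 1 array). Il4ra, which binds IL-4 and IL-13, fell from 419.6 and 478 to 237 and 211. Il6ra read 297 and 273 against 152 and 167 (log2 change -0.84, or -0.55 over all its probe sets). Il1r2, a decoy receptor of IL-1, and Il17ra fell 2.34-fold and 2.11-fold. Il27ra, the receptor of IL-27, fell 1.49-fold and Il21r 1.51-fold. Of the interferon receptors, Ifngr1 fell from 161 and 140.4 to 88.1 and 90.2, Ifnar1 from 294 and 332 to 215 and 180.5 and Ifnar2 from 374 and 376 to 218 and 185 (log2 change -0.90, or -0.55 over all its probe sets). Ifngr2 was not called (limma adjusted p = 0.426). The exceptions were Il10ra, 1.87-fold higher (58.3 and 57.9 against 113 and 104), and Il15ra, 1.47-fold higher (log2 change 0.55); the mean of the Il15ra probe sets gave 0.37 and did not pass (limma adjusted p = 0.0688). The IL-2 receptor chains Il2ra (4265 and 4141 against 4477 and 4570.1) and Il2rb (2754 and 2719 against 2658 and 2679) were strong in both groups and neither was called (limma adjusted p = 0.431 and 0.822).

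The receptors of B7-2 itself changed in opposite directions. Cd28, the activating receptor, fell from 1665 and 1548 to 963 and 1059.9 (log2 change -0.67 ± 0.10, limma adjusted p = 0.00363). Ctla4, the inhibitory receptor, rose from 1105 and 1082 to 1572 and 1798 (log2 change 0.62 ± 0.10, limma adjusted p = 0.00427). In both genes the arrays of the groups did not overlap, which was so for 60.1% of all genes. Over the B7 and CD28 family, 4 of 21 genes were higher and 7 lower, 3 and 2 without any 1 array. Cd200, an inhibitory ligand, rose 1.64-fold to 1788 and 2009, and Cd226, an activating receptor, 1.81-fold from 10.5 and 10.5. Havcr2, which encodes TIM-3, read 40.4 and 47.1 against 88.6 and 78.4 and was called, but not without the first anti-CD3 array (limma adjusted p = 0.0506). Vsir, which encodes the inhibitory ligand VISTA, fell from 246 and 208 to 107 and 96.3. Lag3, an inhibitory receptor, read 1581 and 1675 against 970.0 and 891 and was called lower (limma adjusted p = 0.0212), but not without any 1 of the 4 arrays (limma adjusted p = 0.0614 to 0.0991). Cd160, Btla, Cd86 and Tnfrsf14 were called lower, none of them in each fit without 1 array. Icos (3013 and 3069.6 against 2605 and 2509) and Pdcd1 (109 and 102 against 134 and 117), which encodes PD-1, were not called.

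Genes of the T cell receptor cascade were more often lower. Of 32 members 9 were called lower and 2 higher (5 and 0 without any 1 array), with a median log2 change of -0.23. Cd3g fell from 3078 and 3085 to 1980.0 and 1919, and Prkcq, the kinase that links the receptor to NF-kappaB, from 1624 and 1739 to 1109 and 1029. Sla and Ubash3b, both negative regulators of the receptor, fell 1.83-fold and 2.1-fold, and Vav3, an exchange factor, 1.99-fold (for Vav3, log2 change -0.99, or -0.57 over all its probe sets). The genes called higher were the adaptors Lcp2 and Themis, neither in each fit without 1 array. The kinase Zap70 (669.8 and 691 against 586 and 567) and the adaptor Lat (1531 and 1579 against 1595 and 1532) were not called. Among 31 genes of anergy and of signal brakes, 9 were lower and 4 higher (6 and 2 without any 1 array). Cblb, a ubiquitin ligase that CD28 is known to counter, fell from 929 and 834 to 471 and 556 (log2 change -0.78 ± 0.12, limma adjusted p = 0.00401). Dgka, the kinase that removes diacylglycerol, fell from 2059 and 1901 to 1007 and 1079, and Rnf128, the anergy ligase GRAIL, 2.17-fold from 36.5 and 35.8 (log2 change -1.12, or -0.49 over all its probe sets). Ikzf3, which encodes the repressor Aiolos, fell from 166 and 188 to 75.8 and 80.3 (log2 change -1.18, or -0.68 over all its probe sets). Dusp4, a phosphatase that acts on MAP kinases, rose 2.05-fold and the ligase gene Nedd4 2.1-fold (log2 change 1.07, or 0.61 over all its probe sets). Dusp2 and Cbl were called higher, but not in each fit without 1 array.

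Transcription factors downstream of the receptor were mixed. Of 26 NFAT, AP-1, Egr and Nr4a genes 5 were higher and 5 lower (4 and 2 without any 1 array), beside 11.2% and 13.3% of all genes. Atf3, a stress-induced factor, rose from 589 and 638 to 1393 and 1269, Nr4a1 from 36.9 and 43.5 to 65.0 and 75.7, and Fosl1 2.41-fold from 12.4 and 8.53 (log2 change 1.27, or 0.59 over all its probe sets). Nr4a3, a relative of Nr4a1, was called higher (log2 change 0.88), but over all its probe sets the value was 0.26 and did not pass (limma adjusted p = 0.0794). Junb was higher too, a call lost without the first anti-CD3 array, the second anti-CD3 array or the first B7-2 array (limma adjusted p = 0.071 to 0.113). Jun fell from 652 and 663 to 264 and 243 (log2 change -1.38 ± 0.14, limma adjusted p = 0.000881). Fosl2, Hdac7, Ppp3cc and Ppp3cb were also called lower, Fosl2 not without the first anti-CD3 array (limma adjusted p = 0.0557), Hdac7 not over all its probe sets (limma adjusted p = 0.059), and the last 2 in no fit without 1 array. Egr2, Nfatc1 and Batf were not called. Of 23 NF-kappaB genes 5 were higher and 8 lower, beside 11.2% and 13.3% of all genes called. Most of these rises and some of the falls were lost without 1 array. Ikbke, a kinase of the pathway that also serves interferon induction, fell from 234 and 219.9 to 72.3 and 67.9, and the inhibitor Nfkbie 2-fold. Nfkbid, which encodes an atypical inhibitor of NF-kappaB, rose 1.58-fold. Map3k14, the kinase of the noncanonical branch, fell from 102 and 118 to 62.5 and 59.6 (log2 change -0.84, or -0.54 over all its probe sets). Rel, which encodes the subunit c-Rel, read 41.7 and 36.0 against 67.9 and 68.7 and was called higher, but not without any 1 of the 4 arrays (limma adjusted p = 0.106 to 0.185). Of 24 genes of the PI3K, Akt and mTOR pathway 8 were lower and 3 higher (5 and 1 without any 1 array). The kinase adaptor Pik3ap1 and the catalytic subunit Pik3cg fell 2.3-fold and 2-fold (for Pik3ap1, log2 change -1.20, or -0.73 over all its probe sets), and Mtor and Rictor, which encode the kinase mTOR and a partner, were called higher, neither in any fit without 1 array. The sestrins, which restrain mTOR, divided: Sesn3 fell from 1902 and 1897 to 749 and 753 and Sesn1 from 515 and 558 to 261 and 296, while Sesn2, a target of the amino acid response, rose from 38.7 and 33.1 to 115 and 104.

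Factors that set helper lineages moved in both directions. Of 30 genes 6 were higher and 6 lower (3 and 4 without any 1 array), beside 11.2% and 13.3% of all genes. Gata3, the Th2 factor, read 894 and 913 against 887 and 905 (log2 change -0.01 ± 0.10, limma adjusted p = 0.95), and Tbx21, the Th1 factor, 552 and 702 against 568 and 512 (limma adjusted p = 0.42), and neither was called. Bcl6, the factor of follicular helper cells, fell from 484 and 462 to 82.9 and 90.2 (log2 change -2.45 ± 0.15, limma adjusted p = 0.000193; -1.30 over all its 2 probe sets), and Prdm1, which encodes its antagonist Blimp-1, rose from 79.6 and 87.4 to 191 and 216 (log2 change 1.28 ± 0.10, limma adjusted p = 0.000445). Maf, another factor of follicular and IL-10-producing cells, fell from 675 and 691 to 223 and 208. Pparg, a nuclear receptor found in Th2 cells, rose from 51.0 and 43.7 to 170.4 and 185, and Zbtb32, a repressor induced by activation, from 128 and 123 to 419.9 and 408. Ikzf2, which encodes Helios, read 24.0 and 28.3 against 64.0 and 61.1 and was called higher, but not without the first anti-CD3 array, the first B7-2 array or the second B7-2 array (limma adjusted p up to 0.0786). Rora and Bhlhe40 were higher and Ahr and Ikzf1 lower, none of them in each fit without 1 array, and Id3, an inhibitor of E proteins, fell 1.95-fold.

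TGF-beta with IL-2, as given to both groups, is used to induce regulatory T cells. Foxp3, their defining factor, read 78.8 and 96.4 against 70.3 and 77.5 and was not called (log2 change -0.24 ± 0.12, limma adjusted p = 0.209). Of 22 regulatory T cell genes 4 were higher and 5 lower (3 and 2 without any 1 array), beside 11.2% and 13.3% of all genes. Besides Il10, Ctla4, Ebi3 and Ikzf2, which belong to this list too, Nt5e, the ectoenzyme CD73, fell from 240.5 and 228 to 50.9 and 46.4 by its strongest probe set (log2 change -2.27, and -0.80 over all its 3 probe sets) and Fgl2 2.56-fold (log2 change -1.35, or -0.69 over all its probe sets). Entpd1, Capg and Socs2 were called lower, none of them in each fit without 1 array. Of 29 genes of TGF-beta signalling 9 were lower and 2 higher (5 and 2 without any 1 array). Acvr1b and Acvr2a, receptors of activin, fell from 145 and 145 to 68.9 and 79.2 (log2 change -0.97, or -0.61 over all its probe sets) and from 849.6 and 682 to 341 and 402. Tgfbr1 read 596 and 528 against 334 and 363 and was called lower, but not without the first anti-CD3 array (limma adjusted p = 0.0509) or over all its probe sets (log2 change -0.23, limma adjusted p = 0.33). Tgfbr2 and Smad3, the other receptor chain and a signal carrier, were called lower, but in no fit without 1 array. Ltbp3, which binds latent TGF-beta, fell 2.42-fold (log2 change -1.27, or -0.57 over all its probe sets), and Bambi, a decoy receptor, rose 1.67-fold. Inhba, the activin subunit gene, rose from 91.4 and 87.6 to 333 and 358 (log2 change 1.95 ± 0.09; 0.99 over all its 2 probe sets).

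Genes that build ribosomes and nucleotides rose together. Of 44 genes of RNA polymerases I and III and of ribosomal RNA processing, 36 were called higher and 0 lower, 27 of them without any 1 array, with a median log2 change of 0.69. Polr1b, the second-largest subunit of RNA polymerase I, read 85.1 and 80.2 on the anti-CD3 arrays and 208 and 219.9 on the B7-2 arrays. Its partner Polr1a rose from 114 and 123 to 244 and 238. The processing factors Rrp12 and Noc3l rose 2.38-fold and 2.35-fold, Rrp9, a protein of the U3 particle, 2.13-fold, and Noc2l 2.05-fold. The initiation factor Rrn3 rose 1.5-fold. Taf1b and Nop56 were not called. Of the array's control probe sets for 18S ribosomal RNA, the strongest read 1308 and 683 on the anti-CD3 arrays and 2019 and 1821 on the B7-2 arrays. The others were dim, at 29.5 and 31.9 against 51.9 and 46.6, and at 11.8 and 11.6 against 17.6 and 21.4. The part of this RNA in the values of the genes was not tested. Genes of the cytosolic ribosomal proteins themselves were called in 1 case of 53: Rpl14 was higher (823 and 855 against 1063 and 1040.0), a call lost without any 1 of the 4 arrays (limma adjusted p = 0.0943 to 0.15). The median over these genes was -0.01. Many of them were very strong: Rps20 and Rpl37 read 8061 and 6833 on the first anti-CD3 array, where the highest intensity deposited was 10872. Whether signal this strong could still show a rise was not tested. Of 70 mitochondrial ribosomal proteins 25 were higher and 0 lower, 9 without any 1 array, the largest rise being that of Mrpl1, from 874 and 893 to 1569 and 1476.

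In the synthesis of serine, folate-bound carbon units, purines and pyrimidines, 18 of 24 genes were higher and 0 lower (14 higher without any 1 array), with a median log2 change of 0.70. Several steps of the purine pathway were among them. Ppat, the committed enzyme, rose from 676 and 685 to 1409 and 1292, Gart, which carries several of the next steps, from 269 and 306 to 883 and 938 (log2 change 1.67 ± 0.11, limma adjusted p = 0.000253), Pfas from 356 and 318 to 746 and 879 and Adsl from 386 and 452 to 904 and 857. Paics read 2514 and 2462 against 2726 and 2782 and was not called (limma adjusted p = 0.269). Serine synthesis begins with Phgdh, which rose 2-fold, and ends with Psph, 2.03-fold. Of the enzymes that move serine's carbon to folate, Shmt1 in the cytosol rose from 261 and 262 to 698 and 750.1, Shmt2 in mitochondria 1.76-fold, and Mthfd1 from 1073 and 983 to 2334 and 2436. Of pyrimidine synthesis, Cad rose 1.74-fold, Dhodh 1.96-fold and Ctps 1.98-fold.

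Genes that supply amino acids and charge transfer RNA rose with them. Of 17 cytosolic aminoacyl-tRNA synthetases 14 were higher and 0 lower (10 higher without any 1 array; median 0.55), led by Eprs (521 and 516 against 1127 and 1075), Lars (760.4 and 850.1 against 1593 and 1620.5) and Iars (895 and 969.9 against 1821 and 1811). Of 17 amino acid transporters 7 were higher and 2 lower, each also without any 1 array. The large neutral amino acid carrier is a pair of Slc7a5, which rose from 1155 and 1213 to 2165 and 2208, and Slc3a2, from 987 and 933 to 1479 and 1457. The glutamine carrier Slc1a5 rose 1.51-fold and the cationic carrier Slc7a3 2.63-fold. Slc7a11, the cystine carrier, rose from 12.1 and 11.3 to 34.2 and 33.1 (log2 change 1.53, or 0.86 over all its probe sets). Cth, which makes cysteine from cystathionine and was among the 15 largest rises of all, went from 31.1 and 34.4 to 148 and 156 (log2 change 2.22 ± 0.21, limma adjusted p = 0.000713). Slc38a9, the arginine sensor of the lysosome, fell 2.06-fold (log2 change -1.04, or -0.60 over all its probe sets), and Slc43a2, a carrier of neutral amino acids, 1.46-fold. Of 34 chaperones 17 were higher and 1 lower, but 6 of the rises held without any 1 array, led by Hsp90aa1 (1.96-fold); Hspa4l fell 1.46-fold. Of 36 proteasome subunits 13 were higher, 4 of them without any 1 array, which were Psmd7, Psme3, Psmd3 and Psmd1. Psmb9, the subunit that interferon induces, was lower (2281 and 2396 against 1822 and 1725), a call lost without any 1 of the 4 arrays (limma adjusted p up to 0.0898).

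**Figure D3:**
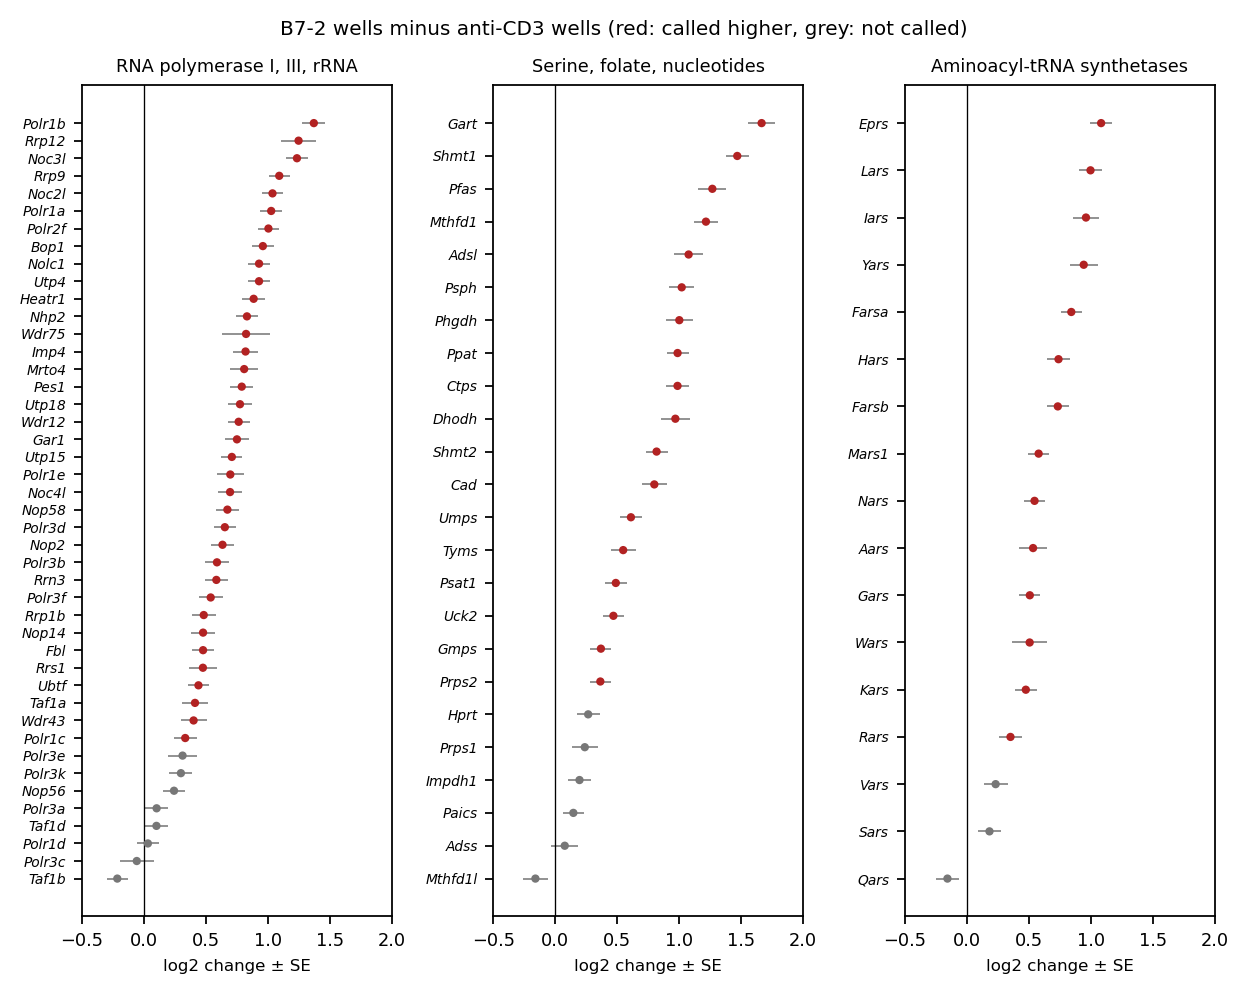
Log2 change, B7-2 wells minus anti-CD3 wells, with its standard error from the limma fit, for the genes of 3 biosynthetic lists; red points were called higher and grey points not called. Of 44 polymerase and ribosomal RNA genes 36 were higher, of 24 serine, folate and nucleotide genes 18, and of 17 synthetases 14, and no gene of the 3 lists was called lower.

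Glucose metabolism did not rise as a whole. Of 24 genes 3 were higher and 6 lower (2 and 6 without any 1 array; median -0.10). Hk2, the inducible hexokinase, rose from 1269 and 1290.0 to 2671 and 2668 (log2 change 1.06 ± 0.09, limma adjusted p = 0.000525), and Hk1, the constitutive form, fell from 1463 and 1411 to 967 and 1034 (log2 change -0.52 ± 0.09, limma adjusted p = 0.00609). Slc2a1, the glucose carrier that CD28 is known to raise, read 3312 and 2997 against 3948 and 4248 and was called higher (limma adjusted p = 0.0483), but not without any 1 of the 4 arrays (limma adjusted p = 0.0918 to 0.213) or after a repeated quantile normalization (limma adjusted p = 0.0695). Aldoc and Eno2, isoforms of glycolytic enzymes, fell from 1229 and 1270.5 to 413 and 358 and from 438 and 418 to 187 and 208. The carrier Slc2a6 fell 2.78-fold, and Slc16a1, which carries lactate, rose 1.61-fold. Gapdh (9613 and 9549 against 9539 and 9558), Ldha and Pkm were not called. Of 70 respiratory chain genes 10 were higher and 2 lower, beside 11.2% and 13.3% of all genes, and 1 and 1 without any 1 array; the falls were those of Ndufa6 (1.63-fold) and Ndufb11, the latter lost without any 1 of the 4 arrays (limma adjusted p = 0.0814 to 0.0928). Of 18 cholesterol synthesis genes Idi1 was called higher and Sc5d lower, beside 11.2% and 13.3% of all genes. Neither was called in any fit without 1 array. Pdk1, which inhibits pyruvate dehydrogenase, and Pfkfb4, which sets the level of a glycolytic activator, fell 1.47-fold and 1.62-fold.

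Myc, which drives growth genes, read 133 and 92.4 against 178 and 236 and was called higher (log2 change 0.89 ± 0.20, limma adjusted p = 0.0188), but not without the second anti-CD3 array or the second B7-2 array (limma adjusted p = 0.0876 to 0.0922). The Mxd proteins compete with Myc for its partner Max. Mxd4 fell from 1108 and 1083 to 261 and 266 (log2 change -2.06 ± 0.08, limma adjusted p = 9.7e-05; -1.21 over all its 4 probe sets), Mxd1 from 366 and 422 to 139 and 146 (log2 change -1.46, or -0.88 over all its probe sets), and Mxd3 1.43-fold. Srm, a polyamine enzyme and known Myc target, rose from 1365 and 1276 to 2486 and 2486. Ncl, which encodes nucleolin, rose 1.87-fold by its only probe set, from the weaker signal of 65.3 and 69.7 to 125 and 127. Over the list of 20 Myc and polyamine genes 5 were higher and 3 lower, the others called higher being Nme1 and Sms, the latter lost without any 1 of the 4 arrays (limma adjusted p = 0.0781 to 0.0942). Of 37 cyclins, kinases and their inhibitors 6 were higher and 8 lower, beside 11.2% and 13.3% of all genes. Some of these calls were lost without 1 array. The G1/S cyclins Ccne1 and Ccne2 rose 1.73-fold and 1.65-fold, with E2f3 1.68-fold. Cdkn1b, the inhibitor p27 that holds resting cells, fell from 1343 and 1220.5 to 644 and 715 (log2 change -0.92 ± 0.13, limma adjusted p = 0.00324; -0.60 over all its probe sets), and Ccng2, a cyclin of resting cells, 2.34-fold, whereas Cdkn1a, the inhibitor p21, rose from 1284 and 1230.0 to 2029 and 1999. The mitotic genes Cdk1, Ccna2 and Ccnb2 were not called.

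Survival genes gave no uniform picture. Of 25 BCL-2 family and caspase genes 2 were higher and 7 lower (1 and 3 without any 1 array), beside 11.2% and 13.3% of all genes. Bcl2l1, which encodes the survival protein Bcl-xL that CD28 is known to raise, read 501 and 426 against 587 and 625 and was called higher (log2 change 0.39 ± 0.11, limma adjusted p = 0.0382), but not without the second anti-CD3 array, the first B7-2 array or the second B7-2 array (limma adjusted p = 0.0904 to 0.189) or after a repeated quantile normalization (limma adjusted p = 0.0554). Bcl2, a second survival gene, fell from 1592 and 1489 to 904 and 919. Bcl2l11, which encodes the death-promoting Bim, fell from 419 and 442 to 114 and 107 (log2 change -1.96 ± 0.13, limma adjusted p = 0.000243), and Bid, also death-promoting, rose 1.61-fold (log2 change 0.69, or 0.36 over all its probe sets). Pmaip1, Apaf1, Bik and Casp2, which promote death, were called lower, none of them in each fit without 1 array. Cflar, the caspase-8 inhibitor, fell from 515 and 523 to 262 and 319 by its strongest probe set (-0.84), but the mean of its 5 probe sets gave 0.25, so no direction is given for it.

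Genes that interferons induce fell. Of 38 such genes 0 were called higher and 22 lower, against 13.3% of all genes, 14 of them without any 1 array, with a median log2 change of -0.46. The guanylate-binding proteins, large GTPases that attack vacuoles of pathogens, included the largest fall. Gbp2 read 2875 and 2951 on the anti-CD3 arrays and 505 and 538 on the B7-2 arrays (log2 change -2.48 ± 0.09, limma adjusted p = 6.99e-05). Gbp3 fell from 818 and 834 to 199 and 213 and Gbp7 from 544 and 541 to 193 and 173. Of the smaller immunity-related GTPases, Iigp1 fell from 865 and 846 to 200.4 and 218, Irgm2 from 828 and 824 to 427 and 392 and Tgtp1 from 4130.2 and 4229 to 2357 and 2398. Usp18, which removes ISG15 and dampens the interferon receptor, fell from 155 and 151 to 42.9 and 39.6. Mx1, an antiviral GTPase, fell from 64.5 and 83.7 to 33.1 and 28.4, a call lost without the second anti-CD3 array (limma adjusted p = 0.0546), and Dhx58 and Ddx58, sensors of viral RNA, fell 3.15-fold and 1.74-fold (for Dhx58, log2 change -1.65, or -0.72 over all its probe sets). In these 10 genes, given because they were called, both B7-2 arrays lay below both anti-CD3 arrays. The arrays of the groups did not overlap in 60.1% of all genes, so this adds little. Members of the same list that were not called included Irgm1 (558 and 570.0 against 464 and 486), Oas3 (285 and 227 against 262 and 231) and Gbp4, which read 159 and 150.1 against 204 and 180.4 (limma adjusted p = 0.0588). Ifit1 and Rsad2, antiviral genes, read 21.2 and 11.3 against 15.9 and 13.8 and 20.2 and 20.8 against 21.8 and 17.1 and were not called. These falls stood beside the 4.78-fold rise of Ifng and the falls of its receptor gene Ifngr1 and of Ifnar1 and Ifnar2.

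Promoters of 6 of these genes are shown, 5 called lower and 1 not called, because they hold an element that interferon regulatory factors are known to bind. The motif searched was GAAA followed, after any 2 bases, by GAAA again, the core of that element, on both strands of the 250 bases before each start, in RefSeq promoters of GRCm38.p6; its spacing variants were not searched, and matches to it may overlap. Of the 17097 genes 13605 had a promoter in the table, and 421 of them (3.09%) held the motif. Of the 38 interferon-induced genes 25 had one and 13 held the motif (52%). Among those called lower it was in 8 of 15 and among those not called in 5 of 10. Each line below gives the coding strand 5′ to 3′ in a window around 1 match, with the match in capitals; a match on the opposite strand reads TTTC, any 2 bases and TTTC. The first 5 genes were called lower and Ifit1 was not.
Gbp2 (chr3:142620579-142620638, plus strand): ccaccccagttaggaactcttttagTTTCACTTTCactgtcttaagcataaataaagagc
Gbp3 (chr3:142559974-142560033, plus strand): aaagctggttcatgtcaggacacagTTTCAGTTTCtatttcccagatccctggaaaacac
Gbp7 (chr3:142530258-142530317, plus strand): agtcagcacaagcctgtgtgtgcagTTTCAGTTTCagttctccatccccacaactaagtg
Irgm2 (chr11:58214888-58214947, plus strand): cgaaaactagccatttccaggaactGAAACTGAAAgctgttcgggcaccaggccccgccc
Tgtp1 (chr11:48992289-48992348, minus strand): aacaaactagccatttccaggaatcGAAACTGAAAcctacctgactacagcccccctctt
Ifit1 (chr19:34640779-34640838, plus strand): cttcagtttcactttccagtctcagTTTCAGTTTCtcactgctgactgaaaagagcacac

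The match in capitals begins 59, 45 and 53 bases before the start in Gbp2, Gbp3 and Gbp7. It begins 64 and 77 bases before the start in Irgm2 and Tgtp1, and 85 in Ifit1. Gbp3 holds another match that overlaps the one shown. Ifit1 holds another that begins 104 bases before the start and stands in lower case in its window. A match is a description of the letters and not a shown binding site. The E-box CACGTG, which Myc binds, was in 8.75% of all promoters. Among genes with a promoter in the table, it was in 5 of 38 of the ribosomal RNA list (4 of the 31 genes called higher), in 2 of 22 of the serine, folate and purine list (1 of the 16 called higher) and in 5 of 17 of the Myc and polyamine list (2 of the 3 called higher). TGATGNAA, the core of the amino acid response element, was in 2.86% of all promoters. Counted in the same way, it was in 2 of 11 of the synthetases (2 of the 9 called higher), in 2 of 12 of the amino acid transporters (1 of the 3 called higher) and in 1 of 22 of the serine, folate and purine list (0 of the 16 called higher).

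**Figure D4:**
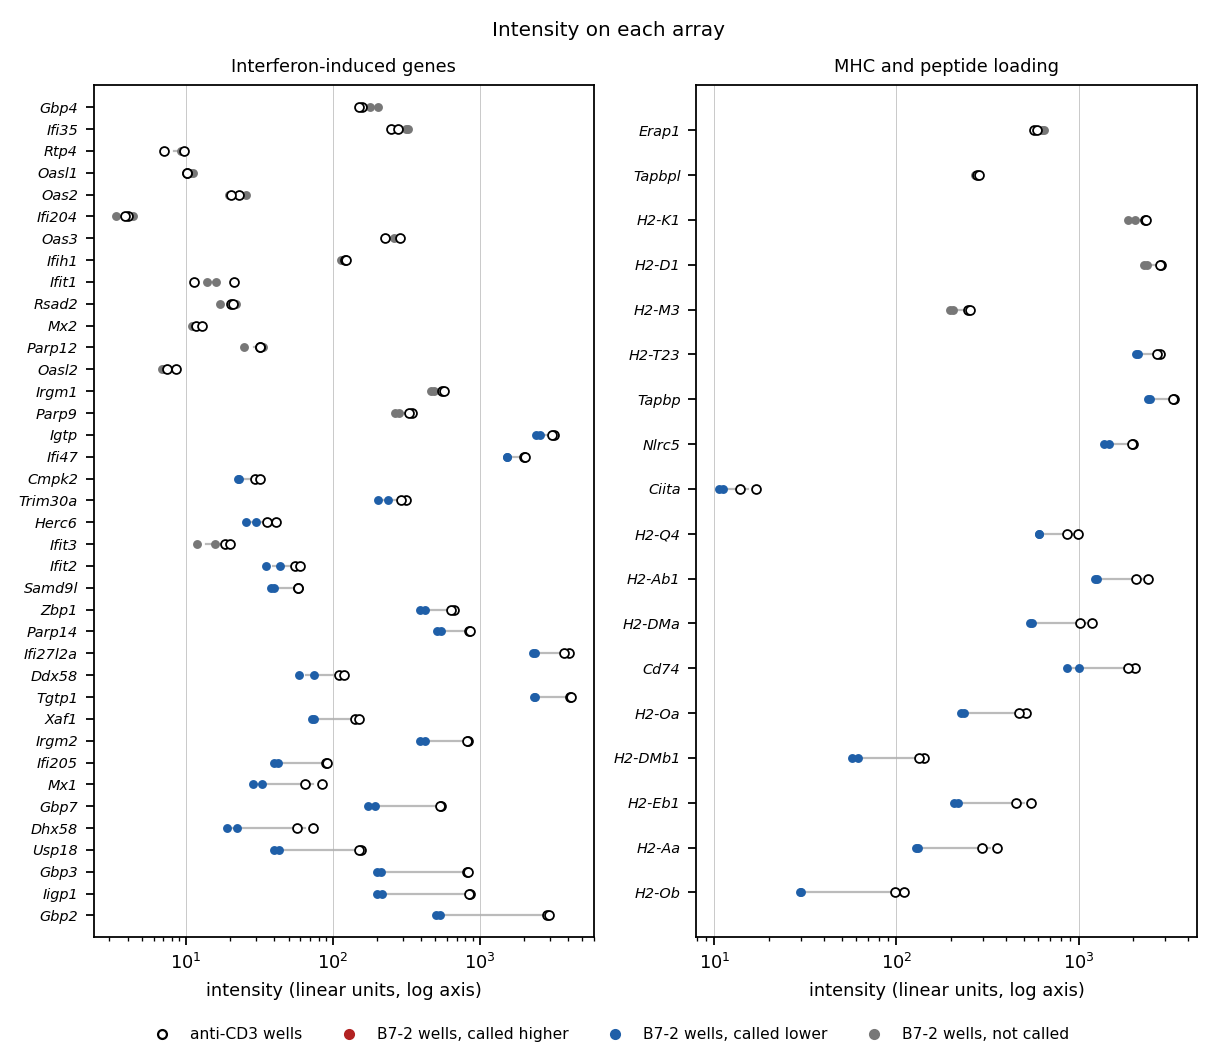
Each row is a gene and each point 1 array, with intensity on a log axis; open circles are the 2 anti-CD3 arrays and filled circles the 2 B7-2 arrays (blue called lower, grey not called). Of 38 interferon-induced genes 22 and of 18 MHC and peptide loading genes 13 were called lower, with Gbp2 and H2-Ob at the bottom of their panels.

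Among the factors that carry interferon signals, those called were lower. Of 23 genes 10 were called lower and 0 higher (6 lower without any 1 array; median -0.27). Stat2, which serves type I interferon, fell from 292 and 311 to 171 and 155, Irf7 from 47.1 and 45.5 to 29.5 and 25.9 and Stat4, which serves IL-12 and interferon, from 1241 and 1254 to 757 and 742. Jak1, a kinase of the interferon receptors, was called lower (558 and 518 against 326 and 306), but its probe sets averaged gave -0.28 and did not pass (limma adjusted p = 0.102). Irf2 fell 1.54-fold. Irf1 read 871 and 884 against 771 and 738 and was not called (limma adjusted p = 0.159), nor were Socs1 and Socs3, inhibitors induced by cytokine signals.

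Genes of antigen presentation fell. Of 18 genes 13 were lower and 0 higher (8 lower without any 1 array; median -0.55). The class II chains H2-Aa and H2-Eb1 fell from 359 and 294 to 128 and 131 and from 549 and 456 to 207 and 219, the invariant chain Cd74 from 2044 and 1873 to 863 and 1004, and H2-Ob, which tunes peptide loading, from 110.1 and 98.0 to 29.5 and 29.8. H2-DMb1, H2-DMa and H2-Oa, which also act in class II loading, fell 2.31-fold, 2-fold and 2.13-fold. H2-Ab1 was called lower, but not without any 1 of the 4 arrays (limma adjusted p = 0.0507 to 0.105). The classical class I genes H2-K1 (2311 and 2352 against 1878 and 2031) and H2-D1 (2825 and 2809.7 against 2377 and 2298) were not called (limma adjusted p = 0.0817 and 0.0831). H2-Aa, H2-Ab1, H2-Eb1 and Cd74 are also 4 of the 14 B cell markers. The sum of the 14, which fell from 6367 and 5655 to 3082 and 3185, includes these 4 and so in part restates the fall of class II. Cd79b and Cd22, B cell genes outside antigen presentation, fell 2.47-fold and 2.24-fold (for Cd22, log2 change -1.16, or -0.70 over all its probe sets). The part of B cells in the fall of class II was not tested.

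Genes of resting lymphocytes fell more often than they rose. Of 20 quiescence genes 11 were lower and 2 higher (median -0.42). Over the mean of all probe sets of each gene, 6 were lower and 2 higher. Some of the 11 falls were lost without 1 array. Slfn1, a growth-restraining schlafen protein, dropped from 1372 and 1298 to 135 and 136 (log2 change -3.30 ± 0.15, limma adjusted p = 0.000109), and its relative Slfn2 1.82-fold. Rgs10 fell from 2187 and 2299.9 to 669 and 555, Igfbp4 from 1321 and 1182 to 363 and 404, and Bach2, a repressor of effector genes, from 1403 and 1325 to 553 and 561. Txnip, an inhibitor of glucose uptake, fell 1.84-fold (log2 change -0.88, or -0.41 over all its probe sets, where it did not pass, limma adjusted p = 0.0506). Klf6 and S1pr1, the receptor for exit from lymph nodes, were called higher, neither in each fit without 1 array. Of 8 GIMAP genes, which support the survival of resting T cells, 6 were lower and 1 higher, among them Gimap6 (1209 and 1284 against 609.9 and 609.9), Gimap3 (3508 and 3545 against 2128 and 2171), Gimap1 and Gimap4; Gimap5 was higher, from 34.8 and 42.2 to 54.0 and 53.2, a call lost without the first anti-CD3 array, the first B7-2 array or the second B7-2 array (limma adjusted p = 0.0851 to 0.128). Of 19 homing and adhesion genes 6 were lower and 1 higher (5 and 0 without any 1 array). Itgb3, the integrin beta 3 chain, fell from 780.4 and 767 to 231 and 202 (log2 change -1.84, or -1.20 over all its probe sets), Selplg, the P-selectin ligand, from 1442 and 1343 to 692 and 703, S1pr4 2.31-fold and Fut7, the enzyme that completes selectin ligands, 1.86-fold. Klf2, which controls several homing genes, read 36.5 and 33.1 against 22.8 and 30.2 and was not called (limma adjusted p = 0.0817).

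Cytotoxic granule genes did not move together. Of 21 genes 5 were higher and 5 lower (3 and 1 without any 1 array), beside 11.2% and 13.3% of all genes. Ctsw, the cathepsin W of killer cells, fell from 2416 and 2582 to 446 and 410.3 (log2 change -2.54 ± 0.11, limma adjusted p = 0.000109). Gzma (1550.0 and 1727 against 1869 and 1900.4) and Gzmb (2503 and 2816 against 2780.4 and 3019) were strong in both groups and not called. Serpinb9 and Serpinb6b, which protect cells from granzymes, rose from 219.9 and 181 to 489.9 and 511 and from 759 and 755 to 1745 and 1649.8. Prf1, the pore-forming protein perforin, and Ctsc were called higher and Gzmg, Gzmc, Rab27a and Lamp1 lower, none of them in each fit without 1 array; Fasl is the remaining gene of this list that rose. The CD8 T cell and NK cell genes fell beside these values, in sum from 751 and 803 to 399.6 and 383, and Klrd1, an NK cell receptor chain, from 129 and 149 to 32.5 and 42.2; their part in the change of Ctsw was not tested.

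Several of the largest changes were in genes not usually followed in T cells. Pth, the parathyroid hormone gene, had the largest rise of all, from 37.2 and 27.9 on the anti-CD3 arrays to 481 and 573 on the B7-2 arrays (log2 change 4.03 ± 0.21, limma adjusted p = 0.000166). Nts, the precursor of the peptide neurotensin, rose from 24.1 and 22.2 to 175 and 203 and Sval1 from 7.48 and 7.21 to 54.9 and 53.8, the latter from near background. Ermn, a cytoskeletal protein of myelinating cells, rose from 50.1 and 52.8 to 346 and 333. Pdpn, the mucin-type protein podoplanin that also marks exhausted and Th17 cells, rose from 58.1 and 65.3 to 433 and 365. Stra6, the receptor that takes up retinol, and Lad1, ladinin, rose 5.54-fold and 5.21-fold. The call of each of these 7 genes held without any 1 array. That their B7-2 arrays lay above both anti-CD3 arrays was a condition of their choice and is no further result.

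Among the falls, Pglyrp1, a secreted peptidoglycan-binding protein, dropped from 2595 and 2384 to 252 and 248 (log2 change -3.32 ± 0.17, limma adjusted p = 0.000145), the largest fall by the smaller of 2 measures, the strongest probe set and the mean of all. By the strongest probe set alone, Gucy1a1, Tbc1d30 and Trib2 fell more, with log2 changes of -3.86, -3.52 and -3.32, but over all their probe sets the changes were -2.10, -1.99 and -1.90. Calhm6 fell from 139 and 140.3 to 15.4 and 16.7. Gstt1, a glutathione transferase, fell 6.4-fold, Fam183b from 401 and 379 to 70.7 and 44.0 and Ypel4 from 171 and 162 to 31.7 and 21.6. H2-Q1, a nonclassical class I gene, went from 79.3 and 75.4 to 14.9 and 9.87; class I genes are near-identical in parts, and the probes of one can pick up another. Of lysosomal genes, the proton pump subunit Atp6v0d2 fell from 292 and 273 to 49.6 and 54.8, and the protease Ctse from 113 and 88.2 to 24.7 and 19.5. Otud1, a deubiquitinase, and Adamtsl4, an extracellular matrix protein, fell 5.25-fold and 5.08-fold. The fits without 1 array called each of these genes lower as well.

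**Figure D5:**
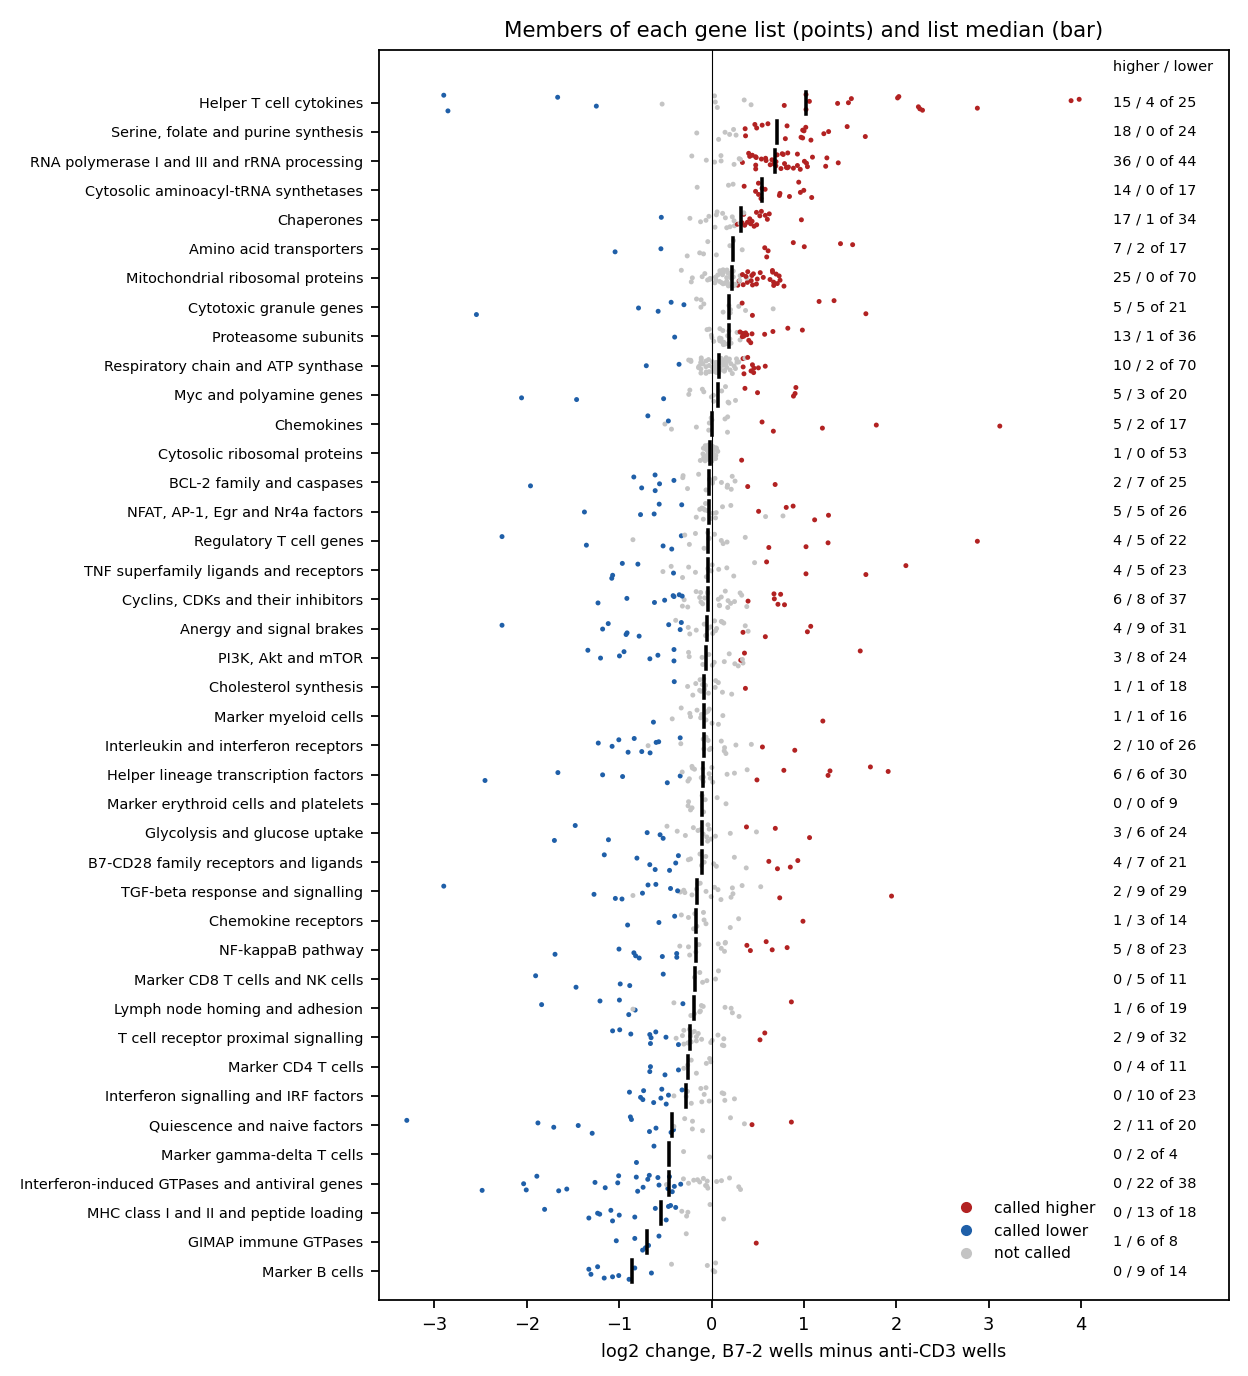
Each row is a gene list, ordered by its median; points are members at their log2 change, B7-2 wells minus anti-CD3 wells (red called higher, blue called lower, grey not called), bars are medians, and the numbers at the right give members called higher and lower of those measured. Cytokines have the highest median (1.02) and B cell markers the lowest (-0.86), and 1 of 53 cytosolic ribosomal protein genes was called.

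The wells coated with BTNL2 besides anti-CD3 and B7-2 give the same genes on 2 further arrays, without a test here. Pth read 11.3 and 16.6, Il5 21.9 and 37.3 and Cth 12.0 and 7.36 there, all below the B7-2 arrays, while Il9 read 2542 and 1557, Ifng 2899.6 and 2529.6 and Ccl3 1913 and 1719, all above them. Of the genes that fell with B7-2, Slfn1 read 1449.6 and 1044 and Gbp2 1472 and 1444, all above the B7-2 arrays, while Fam183b read 5.59 and 6.78, Tgfb3 7.62 and 9.48, H2-Q1 3.87 and 3.70, Atp6v0d2 12.4 and 8.90 and Ypel4 12.2 and 8.33, all below them.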

How the data were processed

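RNA of 6 cultures, 2 of each coating, was amplified from 50 ng, labelled with biotin and hybridised to 6 arrays, per the labels' protocols. The authors deposited linear intensities, 1 for each of 45141 probe sets, made with RMA per the submitters' processing notes. The RMA version is not given in the sources used here. RMA reports a level for dim probe sets too, and 23 nonspecific controls read array medians of 3.68 to 4.49, so changes among dim genes are poorly measured. The deposited intensities were converted to log2 with no pseudocount. Of the probe sets 28898 had 1 gene symbol, 551 several, 104 were controls and 15588 were unnamed, and for each of 17097 genes the probe set of highest mean was kept. The 6 arrays entered 1 limma fit (version 3.58.1, R 4.3.3, functions lmFit and eBayes, 3 residual degrees of freedom, 2-sided, Benjamini-Hochberg over all genes), after the steps had been tested on simulated data. Genes were named by 3 rules: the 15 largest rises and the 15 largest falls, the 4 members of smallest adjusted p in each of 41 lists, and genes set by name; others were added after their values were seen. Of 1123 list names 995 were measured. The members and lists were chosen with earlier results of these data known. Promoters came from RefSeq (GRCm38.p6). The number of arrays limits the precision.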

Additional observations from a re-analysis of the deposited data

How the results depend on the processing

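The 5 counts of called genes were recomputed under 15 alternatives. Leaving out 1 array at a time gave 2454 to 4128 genes called, 1110 to 1854 higher and 1344 to 2274 lower, and of those changed at least 2-fold 195 to 222 higher and 440 to 491 lower; by construction these fits rest on fewer arrays. Leaving out either BTNL2 array equalled the fit of the 4 arrays alone, 4128 called, since a lone array adds nothing to the spread. With 16 added to each intensity, 135 genes were higher and 287 lower by at least 2-fold, which by construction shrinks changes of dim genes. The share of calls that were higher lay between 44.0% and 48.8% under all settings, and the median change between -0.019 and 0.014. Arrays of equal replicate number showed no shared shift, as deviations from the group means correlated at -0.064, -0.001 and -0.027. These values cannot tell whether such cultures shared animals or a run. A replicate block gave 3765 called, 1685 higher and 2080 lower. Of 173 named genes called, 155 kept their call and direction under all 15 alternatives, 18 lost the call under at least 1, and Cflar alone changed sign, to 0.25 over all its probe sets. The 173 were chosen largely for large changes or small adjusted p, and the 15 largest rises and falls also for a call over all probe sets. Their stability was thus in part fixed by the choice and says little of called genes at large. Genes added after their values were seen are not among them. Of genes whose call did not hold in each fit without 1 array, Ccl9, Tnfsf14, Cd86, Cbl, Rictor, Ahr, Ikzf1, Tgfbr2, Smad3, Apaf1, Ctsc and Rab27a were also not called over all their probe sets. For named genes not called, averaging probe sets turned the sign of Cyp51 (0.0879), Rps20 (0.15), Rpl37 (0.0947) and Il2ra (-0.0105). Cd163l1 turned to 0.0087 after quantile normalization, 0.0534 over all its probe sets, and ranged from -0.0804 to 0.0396 with 1 array left out. Gata3 turned to 0.0063 with median centring and ranged from -0.0277 to 0.003 with 1 array left out. Signal limits the dimmest 4275 genes, of which 42 were called higher and 66 lower.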
